A study of Mus musculus with 9 samples.

Results

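The intestinal epithelium and Cdx2 target genes were 51 genes of the absorptive, secretory and barrier functions of the gut, chosen by name, and all 51 had at least 1 probe among the 41174 probes of the array (78 probes in all). They were measured in the esophagus of newborn C57BL/6J mice (postnatal day 0) of 3 genotypes. The groups were p63-/-;Cdx2 mice, which lack p63 and carry a Cdx2 transgene that the series design calls Villin-Cdx2 (2 mice, also called Cdx2 transgene replicates 1 and 2), p63-/- mice, which lack p63 (3 mice), and WT mice (4 mice). The villin promoter drives a transgene in cells that use the gene Vil1, so the level of Vil1 in the tissue is given below. In which cells Cdx2 was made was not tested. The labels count the Cdx2 transgene replicates as of 3, and 2 were analysed here. The animals were bred in-house and the replicates are labelled biological. The labels name the epithelium as cell type, whereas total RNA was taken from esophageal tissue, so changes in cell number and in RNA per cell cannot be told apart. Each sample was hybridised in Cy5 on 1 Agilent array against a reference RNA of 11 mouse cell lines in Cy3, with no dye swap. Each genotype lay on a slide of its own and was scanned at a time of its own, so slide, scan and genotype cannot be told apart. WT replicate 4 has a source name that gives p63-/-, while its title and genotype give WT.

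Cdx1, Cdx2 and Cdx4 are homeobox transcription factors, and Cdx2 sets and keeps intestinal identity in the epithelium of the gut, where Hnf4g, Isx and the secretory lineage factor Atoh1 act beside it. Enterocytes carry a brush border of microvilli built on villin (Vil1) and lined with digestive enzymes, and they take up lipids with the fatty acid binding proteins Fabp1 and Fabp2 and export them with apolipoproteins. Goblet cells secrete the mucin Muc2. The newborn esophagus is normally lined by a stratified squamous epithelium that depends on p63, and several members, among them Fabp1, Apoa1, Apob, Cps1 and Otc, are also made in quantity by hepatocytes.

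The arrays each had between 30038 and 33249 probes whose sample signal the scanner software marked as well above the local background. The squamous keratin Krt5 had signals over local background of 114 and 5409 intensity units in p63-/-;Cdx2 mice, of 229, 903 and 488 units in p63-/- mice and of 38006, 37683, 42038 and 55320 units in WT mice, so WT replicate 4 lay with the WT arrays. The Trp63 probe was well above background on all 9 arrays, at 3082 and 2842 units in p63-/-;Cdx2, 2188, 2642 and 2570 units in p63-/- and 3391, 3903, 5536 and 5468 units in WT. The 3 p63-/- arrays lay below all WT arrays, and the deleted part of the gene is not given in the sources used here. Single arrays stood apart in markers of neighbouring organs. Summed over 9 stomach gland and pit markers, WT replicate 1 had 268252 units, against 826 to 18034 units on the other 8 arrays. Summed over 8 pancreas acinar markers, p63-/- replicate 1 had 51290 units, against 2180 to 4681 units elsewhere. Hepatocyte markers were bright on every array, lowest on WT replicate 2. The sum of 2 thyroid markers spanned 225 to 218680 units.

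Because Cdx proteins bind TTTAT-type sequences in intestinal promoters, the promoters of 5 members that were highest in Cdx2 transgene replicate 2, picked after their values were seen, are shown with every TTTAT in capitals on either strand (ATAAA where it lies on the opposite strand). Further members highest in this mouse, such as Dpp4, Mep1a and Muc13, were not looked at singly. The promoters of Apoa4 and of Vil1, whose promoter names the transgene, hold none, nor do those of Isx, Guca2b and Reg4, not shown, which were highest in the same mouse. Each runs from 250 bases before to 50 bases after the start of the gene, 5′ to 3′, from RefSeq (build GRCm38.p6).
Fabp2, chr3:122894822-122895121, plus strand: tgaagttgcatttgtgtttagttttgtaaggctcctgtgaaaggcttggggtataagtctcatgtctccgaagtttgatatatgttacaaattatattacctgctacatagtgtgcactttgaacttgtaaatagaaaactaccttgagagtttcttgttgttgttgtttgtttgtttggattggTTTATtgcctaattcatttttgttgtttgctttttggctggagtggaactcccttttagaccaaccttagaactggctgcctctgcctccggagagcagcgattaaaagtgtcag
Lct, chr1:128328269-128328568, minus strand: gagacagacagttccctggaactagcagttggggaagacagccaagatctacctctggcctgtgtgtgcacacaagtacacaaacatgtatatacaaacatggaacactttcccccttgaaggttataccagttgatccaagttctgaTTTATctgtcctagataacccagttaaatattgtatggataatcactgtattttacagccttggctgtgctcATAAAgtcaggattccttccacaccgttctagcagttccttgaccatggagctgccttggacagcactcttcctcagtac
Muc3, chr5:137165997-137166296, minus strand: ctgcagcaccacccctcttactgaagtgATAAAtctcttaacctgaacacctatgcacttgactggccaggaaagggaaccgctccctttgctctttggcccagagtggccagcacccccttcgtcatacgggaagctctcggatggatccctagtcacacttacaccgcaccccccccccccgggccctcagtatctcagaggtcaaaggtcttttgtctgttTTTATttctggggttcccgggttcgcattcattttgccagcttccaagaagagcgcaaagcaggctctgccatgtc
Clec2h, chr6:128662135-128662434, plus strand: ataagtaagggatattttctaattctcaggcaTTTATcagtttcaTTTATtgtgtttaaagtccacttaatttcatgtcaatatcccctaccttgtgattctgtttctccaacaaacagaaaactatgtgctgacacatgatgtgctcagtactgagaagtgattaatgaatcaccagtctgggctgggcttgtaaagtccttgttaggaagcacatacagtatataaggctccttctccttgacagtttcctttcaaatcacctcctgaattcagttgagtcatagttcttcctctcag
Apoa4, chr9:46240594-46240893, plus strand: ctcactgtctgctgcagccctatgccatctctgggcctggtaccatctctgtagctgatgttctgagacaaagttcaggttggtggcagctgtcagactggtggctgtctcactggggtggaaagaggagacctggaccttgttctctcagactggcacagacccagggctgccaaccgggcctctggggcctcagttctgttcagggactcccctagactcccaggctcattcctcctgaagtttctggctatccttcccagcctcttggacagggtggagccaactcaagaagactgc
Vil1, chr1:74409134-74409433, plus strand: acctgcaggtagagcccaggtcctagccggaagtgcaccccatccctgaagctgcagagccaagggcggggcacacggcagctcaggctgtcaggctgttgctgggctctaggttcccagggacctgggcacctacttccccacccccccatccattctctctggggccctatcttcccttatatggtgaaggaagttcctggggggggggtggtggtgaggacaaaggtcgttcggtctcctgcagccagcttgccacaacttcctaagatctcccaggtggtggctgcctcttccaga

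Fabp2 has 1 TTTAT, 65 bases before the start. Lct has 2, at 102 and 30 bases, Muc3 has 2, at 222 and 26 bases, and Clec2h has 2, at 218 and 205 bases before the start. Of the 51 members 42 had a promoter in the table, 45 promoters in all. TTTAT on either strand was in 21 of these 45 promoters (46.7%) and in 40.0% of all 32851 promoters of the same length. These matches are a description of the sequence and show no binding.

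Of the 51 members, 27 were well above background on all 9 arrays and 15 on 2 to 8 arrays, and these 42 entered the tests. Of the 15, Clec2h was measured on 2 arrays, Muc3 on 3, Gpa33 on 4, Cdh17, Muc13 and Slc15a1 on 5, Isx on 6, Cdhr2, Guca2b, Tmigd1 and Trim31 on 7, and Apoa4, Muc2, Slc51a and Slc5a1 on 8. Another 4 members, Reg4, Mep1b, Tm4sf20 and Slc26a3, were well above background on 1 array only, the same Cdx2 transgene replicate 2 in each case, and Cdx1, Cdx2, Cdx4, Atoh1 and Treh on none. By array, 33 and 45 of the 51 members were well above background in p63-/-;Cdx2, 34, 39 and 34 in p63-/- and 39, 36, 37 and 40 in WT. The arrays of p63-/-;Cdx2 thus gave the lowest and the highest count of the 9. Of the 41174 probes, 32134 and 32837 were well above background on these 2 arrays, within the 30038 to 33249 of all arrays.

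No member differed between p63-/-;Cdx2 and p63-/- in the log ratio of sample over reference, where 0 of the 22646 genes passed (0%), nor between p63-/- and WT, where 74 genes passed (0.327%), nor between p63-/-;Cdx2 and WT, where 319 passed (1.41%; limma, Benjamini-Hochberg adjusted p under 0.05 over all genes). At an unadjusted p under 0.05 the members numbered 3 of 42 against 11.4% of all genes for p63-/-;Cdx2 against p63-/-, 5 against 7.79% for p63-/- against WT, and 10 against 18.1% for p63-/-;Cdx2 against WT. The sample channel was not divided by the reference, but its normalisation used both channels. In it 51 genes (0.225%), 393 genes (1.74%) and 548 genes (2.42%) passed in these 3 comparisons. The only member among them was Tmigd1, lower in p63-/-;Cdx2 than in WT. The median log2 difference of the 42 members in the log ratio was 0.09 for p63-/-;Cdx2 against p63-/-, where that of all genes was -0.03, and 26 of the 42 lay above 0. It was -0.08 for p63-/- against WT, where that of all genes was 0.02, and 0.07 for p63-/-;Cdx2 against WT, where that of all genes was 0. The first 2 comparisons share the p63-/- arrays. In the log ratio 9 of the 42 members had both p63-/-;Cdx2 arrays above all 3 p63-/- arrays, as did 14.0% of all genes, and 2 had both below, as did 18.0% of all genes. For p63-/- against WT, 4 members had all arrays above (5.96% of all genes) and 2 all below (4.57%), and for p63-/-;Cdx2 against WT 5 had all above (13.9%) and 3 all below (13.8%). In the sample channel the members numbered 11 above (19.4%) and 1 below (16.3%) for p63-/-;Cdx2 against p63-/-, 0 above (9.18%) and 7 below (9.03%) for p63-/- against WT, and 3 above (17.0%) and 8 below (14.1%) for p63-/-;Cdx2 against WT. At an unadjusted p under 0.05 in the sample channel the counts were 2 (17.6% of all genes), 5 (15.9%) and 9 (20.8%).

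**Figure D1:**
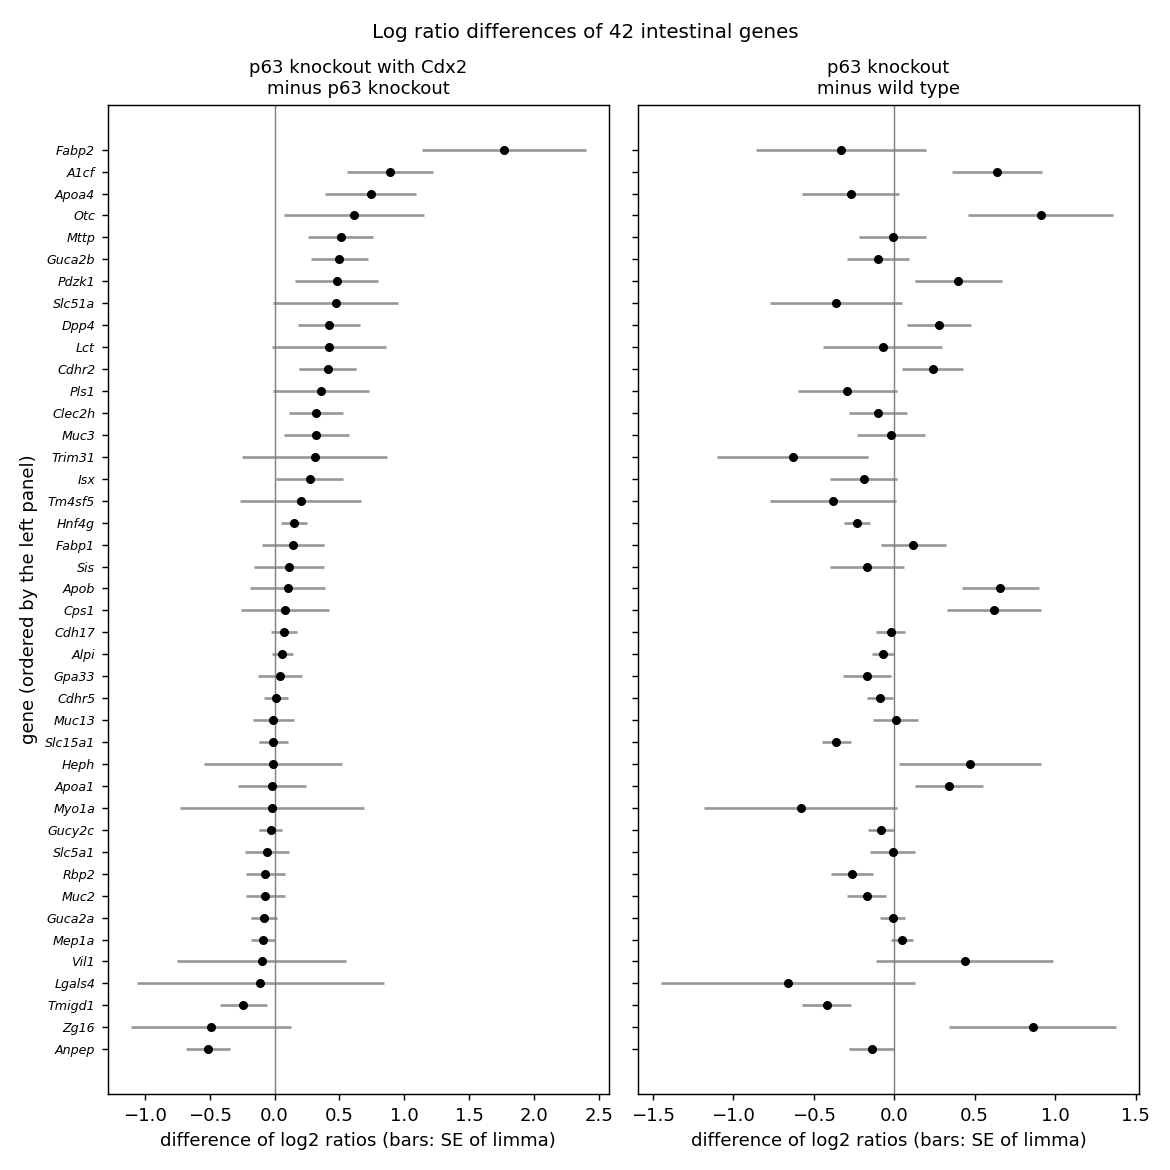
Difference of log2 ratios (horizontal axis) with its limma standard error (bars) for the 42 tested members, in rows ordered by the left panel, for p63-/-;Cdx2 minus p63-/- (left) and p63-/- minus WT (right). Fabp2 stands at 1.77 and A1cf at 0.89 at the top of the left panel and Anpep at -0.51 at its foot, and none of these passed the adjusted test.

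The Cdx genes themselves gave no measurable signal. The Cdx2 probe (chr5:148112547-148112606, build mm9, from base 2014 of its transcript) had signals over local background of -5.5 and 21.7 units in p63-/-;Cdx2 mice, -1.9, -0.4 and -5.0 units in p63-/- mice and 2.4, 8.7, 1.4 and -4.9 units in WT mice. The highest of the 9 was Cdx2 transgene replicate 2, and it was not well above background either. Whether the probe reads the transgene's transcript was not determined here, so it does not check the transgene. Which exon or UTR the probes named here read was not determined either. Cdx1 lay between -4.9 and 5.0 units, at -1.0 and -1.9 units in p63-/-;Cdx2, -1.1, 5.0 and -4.2 units in p63-/- and -3.2, -4.6, -4.9 and 0.5 units in WT. Cdx4 had -5.6 and 2.3 units in p63-/-;Cdx2, -7.7, -1.8 and -1.0 units in p63-/- and -5.7, -5.0, 11.3 and -8.3 units in WT. These values scatter around 0 in every genotype, as did Atoh1 (-3.2 to 8.9 units), the factor of secretory cells. Hnf4g, a nuclear receptor of enterocytes, was dim but measured on all 9 arrays, at log2 sample signals of 7.10 and 7.0 in p63-/-;Cdx2, 6.82, 6.99 and 7.01 in p63-/- and 7.15, 6.96, 6.86 and 7.04 in WT. It differed by -0.23 ± 0.08 (SE) in log2 ratio between p63-/- and WT (adjusted p = 0.492). A second Hnf4g probe was well above background on no array. Isx, a homeobox regulator of vitamin A uptake, had 20.9 and 153.7 units in p63-/-;Cdx2, against 26.9, 47.0 and 20.6 units in p63-/- and 59.6, 63.5, 37.2 and 57.5 units in WT, with Cdx2 transgene replicate 2 the highest array.

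Vil1, the actin-bundling villin of the brush border, was well above background on all 9 arrays (probe at chr1:74481962-74482021, mm9). Its log2 sample signal was 8.85 and 9.77 in p63-/-;Cdx2, 9.37, 8.95 and 9.59 in p63-/- and 12.88, 8.23, 8.08 and 8.34 in WT. WT replicate 1 lay far above all others, and the other 3 WT arrays lay below every knockout array with or without Cdx2. The log2 ratio averaged 1.82 ± 0.22 in p63-/- and 1.38 ± 1.15 in WT (SD, n = 3 and 4), a difference of 0.44 ± 0.55 (SE, adjusted p = 0.867). Without WT replicate 1 the Vil1 difference was 0.99 ± 0.22 (adjusted p = 0.268) and in the sample channel 1.09 (adjusted p = 0.130), which did not pass either. Between p63-/-;Cdx2 and p63-/- Vil1 differed by -0.10 ± 0.65 (adjusted p = 0.968). Myo1a, the motor protein that ties the microvillus core to the membrane, had log2 sample signals of 8.12 and 8.24 in p63-/-;Cdx2, 8.0, 7.96 and 8.17 in p63-/- and 12.10, 8.0, 8.01 and 8.11 in WT, so that all arrays but WT replicate 1 lay between 7.96 and 8.24. Its log2 ratio difference between p63-/- and WT was -0.58 ± 0.60 (adjusted p = 0.836), and 0.06 without that array. Pls1, an actin bundler, followed the same order with 12.27 on WT replicate 1 and 10.29 to 11.22 elsewhere. Cdhr2 and Cdhr5, the cadherins that link the tips of microvilli, did not: Cdhr2 was highest in Cdx2 transgene replicate 1 at 7.79, against 6.37 to 7.01 on the other 8 arrays, and Cdhr5 spanned 6.87 to 7.39. A second Cdhr2 probe was well above background on no array. On the probe used, Cdhr5 had 6.87 and 6.92 in p63-/-;Cdx2, below the 7.26 to 7.37 of WT. A second Cdhr5 probe gave the opposite order, with 6.85 and 6.82 in p63-/-;Cdx2 and 6.71 to 6.74 in WT.

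Among surface proteins, the galectin Lgals4 and the tetraspanin-like Tm4sf5 were, as Vil1 was, highest on WT replicate 1, while their other 3 WT arrays overlapped the knockout arrays. Lgals4 had log2 sample signals of 9.82 and 10.43 in p63-/-;Cdx2, 10.40, 10.13 and 9.89 in p63-/- and 14.76, 10.32, 9.96 and 9.68 in WT. Its log2 ratio difference between p63-/- and WT was -0.66 ± 0.79 (adjusted p = 0.866), and 0.18 without WT replicate 1. Tm4sf5 had 10.39 on WT replicate 1 against 6.70 to 7.36 elsewhere, the antigen Gpa33 had 7.59 against 6.36 to 6.55, and the ubiquitin ligase Trim31 had 6.61 and 7.14 in p63-/-;Cdx2, 6.80, 7.0 and 6.43 in p63-/- and 9.35, 6.94, 6.57 and 6.68 in WT (-0.63 ± 0.47 in log2 ratio for p63-/- against WT, adjusted p = 0.794). In the sample channel 7 of the 42 members (Gpa33, Lgals4, Myo1a, Pls1, Tm4sf5, Trim31 and Vil1) were at least 1 log2 unit higher on WT replicate 1 than on any other array, as were 181 of the 22646 genes (0.799%). Stomach markers were high on the same array. Atp4b, a subunit of the gastric proton pump, had 110260 units there and between 83.5 and 198 units on the other WT arrays, Tff1 had 106045 units and Gkn2 25949 units, and of the 9 stomach markers Gkn1 was well above background on 0 arrays. The part of stomach RNA in these 7 members was not tested.

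Tmigd1, an immunoglobulin-like adhesion protein of epithelial cells, was the only member with a call. Its log2 sample signal was 6.47 and 6.68 in p63-/-;Cdx2, 6.95, 6.52 and 6.64 in p63-/- and 7.24, 7.27, 7.22 and 7.30 in WT. Every WT array lay above every other array. The mean was 6.57 ± 0.15 in p63-/-;Cdx2 and 7.26 ± 0.04 in WT (SD, n = 2 and 4), a difference of -0.69 ± 0.13 (SE, adjusted p = 0.0366), and that of p63-/- against WT was -0.55 ± 0.11 (adjusted p = 0.0585). The probe was dim, with 12.6 and 37.9 units in p63-/-;Cdx2, 63.9, 22.4 and 37.2 units in p63-/- and 79.4 to 101.1 units in WT, and the Tmigd1 call was lost when any WT array, either p63-/-;Cdx2 array or p63-/- replicate 3 was left out (adjusted p between 0.0637 and 0.168). In the log ratio Tmigd1 differed by -0.66 ± 0.17 between p63-/-;Cdx2 and WT (adjusted p = 0.0973) and by -0.24 ± 0.18 between p63-/-;Cdx2 and p63-/- (adjusted p = 0.624). Cdh17, the intestinal cadherin, was well above background on both p63-/-;Cdx2 arrays, on no p63-/- array and on 3 of 4 WT arrays, at 26.7 and 42.2 units, 1.5 to 14.4 units and 17.4 to 48.6 units. In such a case the difference compares values near background. In the sample channel Cdh17 was observed 1.21-fold higher in p63-/-;Cdx2 than in p63-/- and 1.27-fold higher in WT than in p63-/-. As log2 differences these were 0.27 and -0.35, which did not pass (limma, adjusted p of 0.283 and 0.147). The log2 ratios of Cdh17 overlapped between these groups, with differences of 0.07 and -0.02.

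None of the 8 brush border enzymes passed the test with all arrays, and 6 of them were measured in it (limma, 0 calls in the log ratio and the sample channel). Anpep, an aminopeptidase, was among the brightest members. Its log2 sample signal was 11.82 and 12.59 in p63-/-;Cdx2, 12.88, 12.60 and 12.61 in p63-/- and 13.16, 12.90, 12.91 and 13.01 in WT. Both p63-/-;Cdx2 arrays lay below all others, by little in replicate 2, and the log2 ratio difference was -0.51 ± 0.17 against p63-/- (adjusted p = 0.378) and -0.65 ± 0.16 against WT (adjusted p = 0.0964). Without Cdx2 transgene replicate 2 the Anpep difference against WT was -0.97 (adjusted p = 0.0248), and without replicate 1 it was -0.33 (adjusted p = 0.355), in each case with the remaining mouse assumed to vary like the other groups. Dpp4, a dipeptidyl peptidase found in many tissues, had 11.24 and 11.44 in p63-/-;Cdx2, 10.89, 10.93 and 10.50 in p63-/- and 10.60, 10.91, 9.98 and 10.62 in WT, a log2 ratio difference of 0.42 ± 0.24 against p63-/- (adjusted p = 0.526). Lct, the lactase that digests milk sugar in newborns, had 180.2 and 1071.2 units in p63-/-;Cdx2, 330.0, 298.7 and 241.8 units in p63-/- and 472.0, 354.3, 241.4 and 201.3 units in WT. Replicate 2 was the highest and replicate 1 the lowest of the 9 arrays, and the log2 ratio difference was 0.42 ± 0.44 against p63-/- (adjusted p = 0.743). On the probes used, sucrase-isomaltase (Sis) and the intestinal phosphatase Alpi stayed near the lower end of the measured range, at 6.56 to 7.29 and 6.66 to 6.80 in log2 sample signal. A second Alpi probe had 33.3 and 52.6 units in p63-/-;Cdx2, 133.3, 10.9 and 38.4 units in p63-/- and 32.9, 9.1, 6.4 and 14.3 units in WT. That probe was well above background on 2 p63-/-;Cdx2, 2 p63-/- and 1 WT array. Of the meprins, Mep1a spanned 7.14 to 7.73, and Mep1b had 123.7 units on Cdx2 transgene replicate 2 and -7.0 to 18.3 units elsewhere. A second Mep1b probe had 2.2 units on Cdx2 transgene replicate 2 and -8.8 to 4.2 units elsewhere, and was well above background on no array. Treh, the trehalase, had no array well above background.

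Among mucins and secreted proteins, Muc2 spanned 10.3 to 80.6 units over all arrays on the probe used. Its log2 sample signals of 6.42 and 6.79 in p63-/-;Cdx2 lay below the 6.81 to 7.13 of WT without passing (-0.35, adjusted p = 0.311). A second Muc2 probe, well above background on 1 array, had 14.3 and 1.2 units in p63-/-;Cdx2 and 3.8 to 16.7 units in WT. Another Muc2 probe was well above background on no array. Muc13, a mucin of the cell surface, spanned 13.5 to 74.8 units. Muc3, another mucin of the enterocyte surface, had 2.5 and 177.6 units in p63-/-;Cdx2, 11.0, 21.4 and 65.2 units in p63-/- and 15.9, 9.2, 21.3 and 32.4 units in WT. A second Muc3 probe had 1.0 units on Cdx2 transgene replicate 2 and -8.6 to 4.3 units elsewhere, and was well above background on no array. Zg16, a lectin of goblet cell mucus that is also named for the zymogen granules of the pancreas, had log2 sample signals of 7.10 and 7.89 in p63-/-;Cdx2, 10.11, 6.93 and 6.88 in p63-/- and 7.05, 7.19, 6.98 and 7.02 in WT. The difference in log2 ratio was 0.86 ± 0.52 for p63-/- against WT (adjusted p = 0.738) and -0.49 ± 0.62 for p63-/-;Cdx2 against p63-/- (adjusted p = 0.786), and both rest on p63-/- replicate 1, without which Zg16 gave 0.10 and 0.27. The same array held the pancreas sum of 51290 units, with the amylase Amy2a5 at 19845 units and Cpb1 at 19274 units, while Pnlip was well above background on 0 arrays. The part of pancreas RNA in the Zg16 value was not tested. Reg4, a secreted lectin of enteroendocrine and goblet cells, had 175.0 units on Cdx2 transgene replicate 2 and -10.1 to -1.4 units elsewhere. Its reference channel was high on the same array, with a log2 signal of 7.89 against 6.18 to 6.32 elsewhere, although the reference RNA was the same on every array, so its log2 ratio there was -0.26.

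The guanylin receptor Gucy2c, which controls fluid secretion in the gut, stayed at log2 sample signals of 6.95 to 7.21, and its ligand Guca2a at 7.16 to 7.93. The other ligand, Guca2b, had 44.4 and 176.7 units in p63-/-;Cdx2, 25.9, 70.9 and 40.0 units in p63-/- and 43.6, 22.5, 125.9 and 59.9 units in WT. The log2 ratio of Guca2b differed by 0.50 ± 0.22 between p63-/-;Cdx2 and p63-/- (adjusted p = 0.447). Among transporters, the peptide carrier Slc15a1 had 16.6 and 15.3 units in p63-/-;Cdx2, 4.2, 37.3 and 15.9 units in p63-/- and 40.1, 44.4, 30.5 and 44.1 units in WT. No p63-/-;Cdx2 array was well above background, so the observed sample channel difference, 1.30-fold higher in WT, compares with values near background. The log2 ratio differences of -0.38 ± 0.11 against WT for p63-/-;Cdx2 (limma, adjusted p = 0.123) and -0.36 ± 0.09 for p63-/- (adjusted p = 0.295) did not pass. Slc5a1, the glucose carrier, had log2 sample signals of 6.50 and 7.0 in p63-/-;Cdx2, 7.11, 6.85 and 6.73 in p63-/- and 7.43, 7.44, 7.15 and 7.33 in WT, so all WT arrays lay above all others, with adjusted p of 0.106 for p63-/-;Cdx2 and 0.201 for p63-/- against WT. In the log ratio the groups overlapped, with differences of -0.07 and -0.01. The bile acid transporter subunit Slc51a was highest on WT replicate 1 (591.4 units) and on Cdx2 transgene replicate 2 (389.3 units) and had 21.9 to 141.3 units elsewhere. The copper oxidase Heph spanned 10.35 to 11.27, and the chloride exchanger Slc26a3 had 35.7 units on Cdx2 transgene replicate 2 and -2.3 to 21.3 units elsewhere. A second Slc26a3 probe had 4.5 units on Cdx2 transgene replicate 2 and -8.9 to 8.9 units elsewhere, and was well above background on no array.

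Fabp2, the intestinal fatty acid binding protein and a marker of enterocytes, had the largest difference of the members between p63-/-;Cdx2 and p63-/-. Its log2 sample signal was 8.83 and 12.37 in p63-/-;Cdx2, 7.61, 8.22 and 8.20 in p63-/- and 9.53, 8.99, 8.63 and 7.52 in WT (probe at chr3:122602276-122602335, mm9). Replicate 2 stood more than 2 log2 units above every other array, whereas replicate 1 lay above all p63-/- arrays and within the WT range. The log2 ratio averaged 2.94 ± 1.24 in p63-/-;Cdx2 and 1.16 ± 0.33 in p63-/- (SD, n = 2 and 3), a difference of 1.77 ± 0.63 (SE, adjusted p = 0.387). A second Fabp2 probe had 865 units on replicate 2 and between 45 and 97 units elsewhere. Apoa4, an apolipoprotein of chylomicrons, showed the same order, with 6.66 and 8.38 in p63-/-;Cdx2, 6.56, 6.52 and 6.46 in p63-/- and 7.37, 6.87, 6.59 and 6.64 in WT, and a log2 ratio difference of 0.74 ± 0.35 against p63-/- (adjusted p = 0.468). With Cdx2 transgene replicate 1 left out, so that replicate 2 alone stood for its group and was assumed to vary like the others, Fabp2 differed by 4.36 and Apoa4 by 1.87 from p63-/- in the sample channel (adjusted p of 0.0471 and 0.0450). With replicate 2 left out, Fabp2 differed by 0.82 and Apoa4 by 0.14 (adjusted p of 0.530 and 0.815), and in the log ratio by 0.90 and 0.05. Rbp2, the cellular retinol binding protein of enterocytes, had 6.98 and 7.59 in p63-/-;Cdx2, 7.07, 7.34 and 7.10 in p63-/- and 7.89, 7.75, 8.06 and 7.70 in WT. All WT arrays of Rbp2 lay above all others, with a sample channel difference of -0.68 ± 0.16 for p63-/- against WT (adjusted p = 0.0903). In the log ratio Rbp2 overlapped between these groups and differed by -0.26 (limma, adjusted p = 0.688). The overlap came from WT replicate 3, at 0.49 against 0.75 to 0.82 on the other WT arrays.

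**Figure D2:**
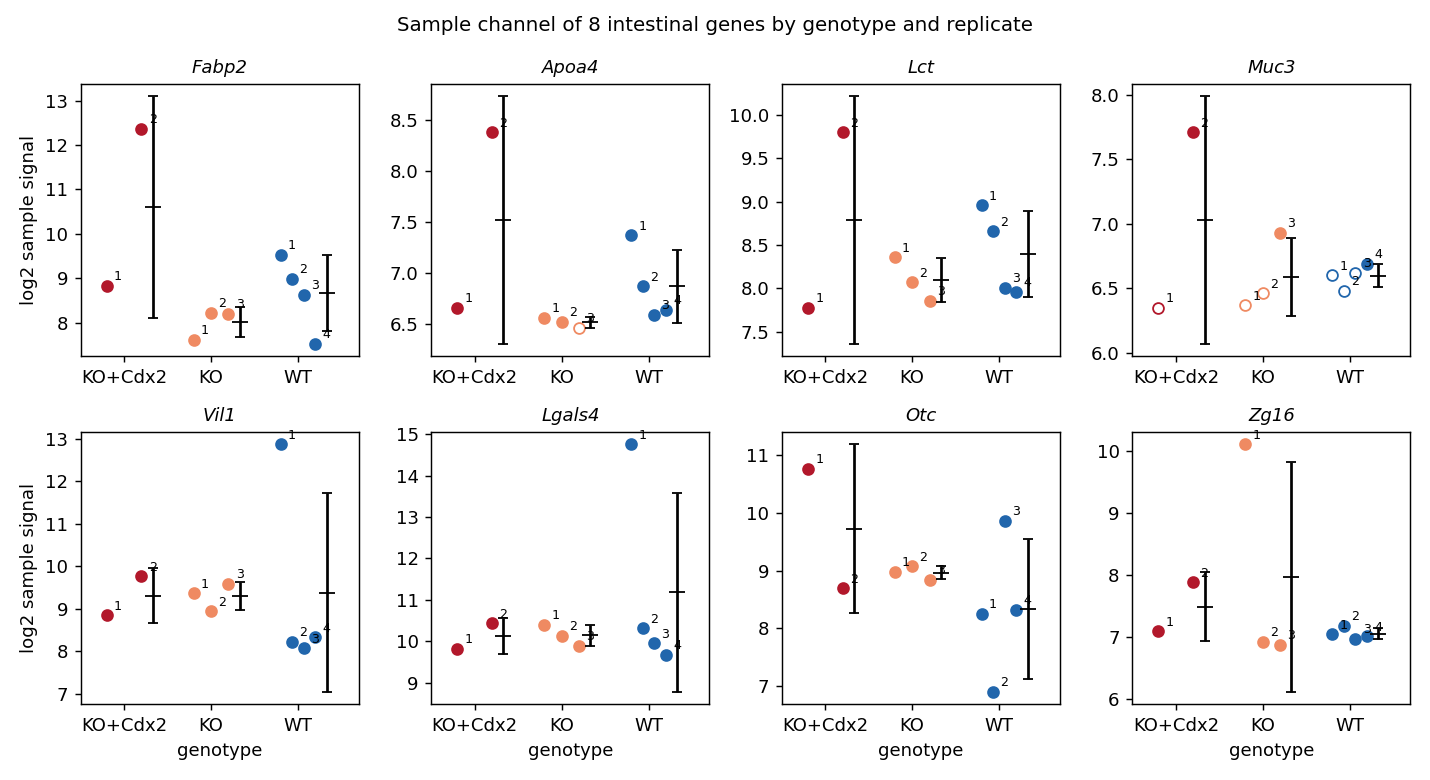
Log2 sample signal (vertical axis, own range in each panel) of 8 members in each mouse of the 3 genotypes, with replicate numbers, open circles for spots not well above background, and bars for the mean and SD of each genotype. In the upper row Cdx2 transgene replicate 2 is the highest point, in Vil1 and Lgals4 WT replicate 1 (12.88 and 14.76), in Otc Cdx2 transgene replicate 1 (10.76) and in Zg16 p63-/- replicate 1 (10.11).

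A group of 9 members that hepatocytes also make was chosen after their values were seen (Fabp1, Apoa1, Apob, Mttp, A1cf, Cps1, Otc, Pdzk1 and Cdhr2). All 9 had their lowest sample signal on WT replicate 2, which held the lowest of 9.42% of all genes. The highest was on Cdx2 transgene replicate 1 in 7 (21.7% of all genes) and on WT replicate 3 in the other 2, Fabp1 and Cps1 (7.87%). Since the 9 were picked with these values known, the counts describe the picked genes only. Otc, an enzyme of the urea cycle, had log2 sample signals of 10.76 and 8.69 in p63-/-;Cdx2, 8.98, 9.07 and 8.84 in p63-/- and 8.25, 6.90, 9.86 and 8.32 in WT. Its log2 ratio difference was 0.91 ± 0.45 for p63-/- against WT (adjusted p = 0.696). Apob, the structural protein of lipoproteins, had 10.80 and 9.35 in p63-/-;Cdx2, 9.65, 9.81 and 9.96 in p63-/- and 8.96, 8.02, 10.42 and 9.07 in WT, with 0.66 ± 0.24 for p63-/- against WT (adjusted p = 0.539). A1cf, the cofactor of the enzyme that edits the Apob message, had 9.97 and 8.72 in p63-/-;Cdx2, 7.90, 8.49 and 8.25 in p63-/- and 7.83, 6.89, 8.69 and 7.64 in WT. On the probe used, the log2 ratio of A1cf was above every p63-/- and WT array in both p63-/-;Cdx2 mice. A second A1cf probe had log2 ratios of 3.03 and 1.61 in p63-/-;Cdx2 and of 1.80, 1.97 and 2.10 in p63-/-. On that probe replicate 2 lay below every p63-/- array. The difference on the probe used was 0.89 ± 0.33 against p63-/- (limma, adjusted p = 0.399) and 1.53 ± 0.31 against WT (adjusted p = 0.0586). With replicate 1 left out A1cf differed by 0.37 and 1.01 from p63-/- and WT, and with replicate 2 left out by 1.40 and 2.04, the last with an adjusted p of 0.0395. The apolipoprotein Apoa1 spanned 9.23 to 12.72 over the 9 arrays, the urea cycle enzyme Cps1 9.95 to 12.50, the scaffold protein Pdzk1 7.31 to 9.62 and the lipid transfer protein Mttp 6.98 to 8.45. Fabp1, the liver-type binding protein, had 63560 and 32431 units in p63-/-;Cdx2, 21649, 29202 and 22729 units in p63-/- and 25605, 3915, 70909 and 16345 units in WT.

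Hepatocyte markers were lowest on WT replicate 2. Summed over the 10 of 11 markers that had a probe, they gave 1644052 and 1163572 units in p63-/-;Cdx2, 1166968, 1557559 and 1707539 units in p63-/- and 641133, 258274, 1585686 and 830825 units in WT. The sum of Cdx2 transgene replicate 2 lacks the marker Ttr. Among the other arrays WT replicate 2 was the lowest and p63-/- replicate 3 the highest. Albumin (Alb) alone had 425222 units on Cdx2 transgene replicate 1 and 40718 units on WT replicate 2, and all 10 were well above background on 8 arrays, with Ttr without a value on Cdx2 transgene replicate 2. The part of liver RNA in these 9 members was not tested. The reference channel of Otc was 8.06 on WT replicate 3 and 6.37 to 6.88 on the other arrays. For Vil1 the reference channel was 9.83 on WT replicate 1 and 7.24 to 7.78 elsewhere, and for Lgals4 11.20 and 9.72 to 9.90. For Fabp2 it was 8.56 on Cdx2 transgene replicate 2 and 6.76 to 7.73 elsewhere. The reference RNA was the same on all arrays, and on these arrays the log ratio differed less from the others than the sample channel did.

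**Figure D3:**
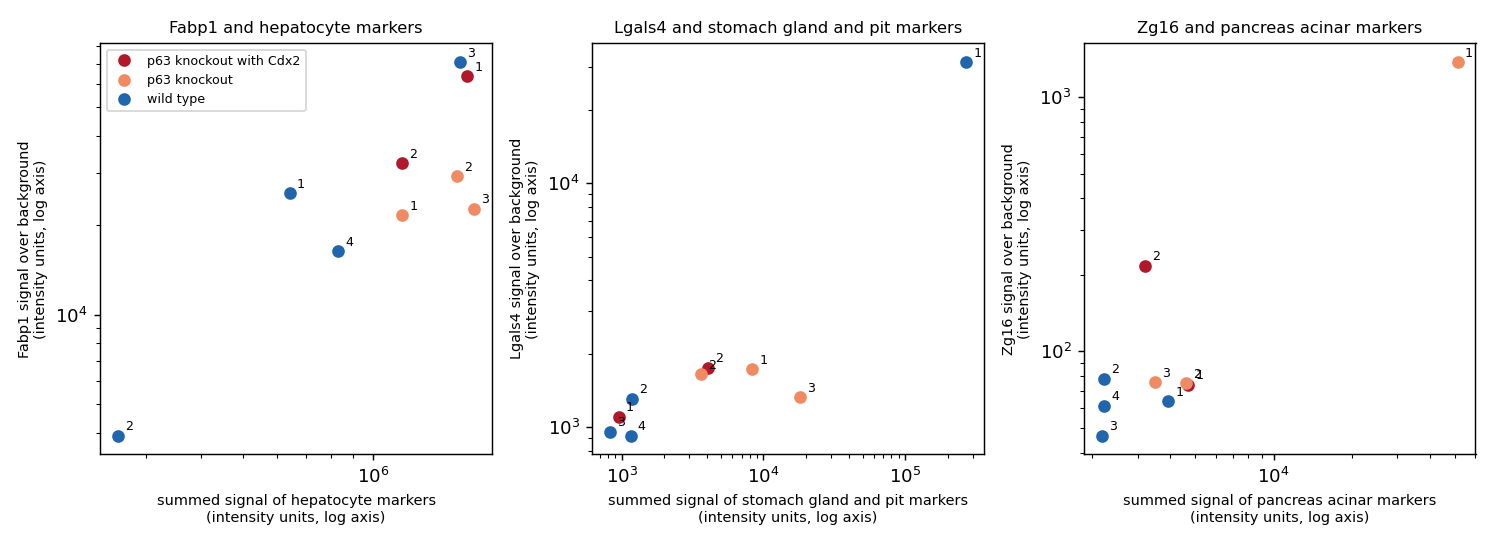
Signal over local background of Fabp1, Lgals4 and Zg16 (vertical log axes, intensity units) against the summed signal of hepatocyte, stomach and pancreas markers (horizontal log axes, intensity units), 1 point per mouse with its replicate number. WT replicate 2 lies lowest in both measures of the left panel, WT replicate 1 alone lies at the upper right of the middle panel and p63-/- replicate 1 alone at the upper right of the right panel. The hepatocyte sum of Cdx2 transgene replicate 2 lacks Ttr.

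Across all 42 members, Cdx2 transgene replicate 2 held the highest sample signal of 10 (Apoa4, Clec2h, Dpp4, Fabp2, Guca2b, Isx, Lct, Mep1a, Muc13 and Muc3) and the lowest of 0, while over all genes without a missing value it held the highest of 10.2% and the lowest of 12.2%. The 10 come to 23.8% of the members. WT replicate 1 held the highest of 11 members (26.2%, against 11.8% of all genes), and WT replicate 2 the lowest of 10 (23.8%, against 9.42%). Replicate 1 of p63-/-;Cdx2 held the highest of 7 members (16.7%, against 21.7% of all genes) and the lowest of 9 (21.4%, against 17.2%). Its lowest members included Isx, Lct, Muc3 and Gpa33. Clec2h, a C-type lectin of the intestine, had -1.0 and 131.8 units in p63-/-;Cdx2, 1.5, 30.5 and 2.3 units in p63-/- and 23.4, 21.1, 21.4 and 12.6 units in WT, and Tm4sf20 had 53.0 units on Cdx2 transgene replicate 2 and -3.1 to 8.5 units elsewhere. The 20 genes that stood out most on Cdx2 transgene replicate 2 in the sample channel included Psmb11 at rank 1, the T cell genes Cd8b1, Cd8a and Cd3d, the cornified envelope gene Lce1a1 at rank 9 and Fabp2 at rank 12. The leucocyte marker Ptprc had 692 and 7206 units in p63-/-;Cdx2, 2316, 2135 and 2178 units in p63-/- and 748 to 978 units in WT. Of 3 kidney markers, Umod had 571.2 units on Cdx2 transgene replicate 2 and 10.2 to 142.2 units elsewhere, Lrp2 2421.2 units and 689.1 to 2954.4 units, and Slc34a1 was well above background on 0 arrays. The part of thymus, blood or kidney RNA in the 10 members was not tested. With 2 mice in the group, whether the intestinal genes of replicate 2 belong to the genotype or to that mouse was not tested.

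**Figure D4:**
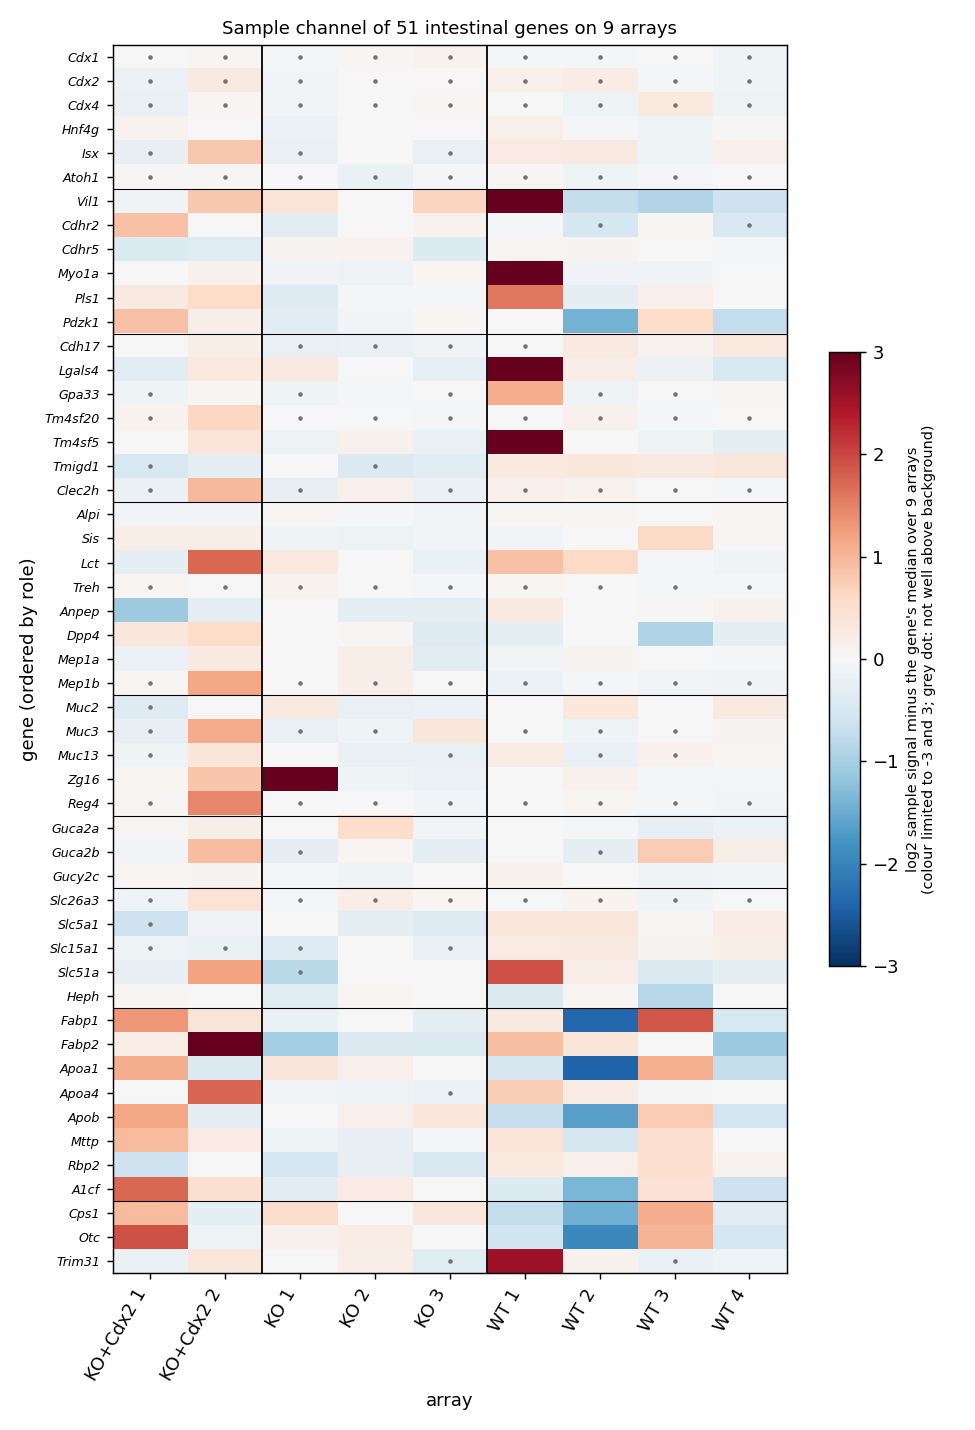
Sample signal of the 51 members (rows, by role) on the 9 arrays (columns), as the log2 difference from the gene's median over the arrays, with colours limited to -3 and 3 and grey dots where the spot was not well above background. Separate blocks of red stand on Cdx2 transgene replicate 1 (Otc, A1cf), on Cdx2 transgene replicate 2 (Fabp2, Lct, Reg4, Apoa4) and on WT replicate 1 (Vil1, Myo1a, Lgals4, Tm4sf5).

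Of 86 other genes of intestinal epithelium, 81 were measured, and their median log2 ratio difference was -0.03 for p63-/-;Cdx2 against p63-/-, 0.06 for p63-/- against WT and -0.04 for p63-/-;Cdx2 against WT. In the first 2 comparisons 0 of the 81 passed. In the third, where 1.41% of all genes passed, Cubn, the cobalamin receptor, differed by 0.71 in log2 ratio (adjusted p = 0.0475), and the peptidase Xpnpep2 and the epithelial factor Elf3 by -1.11 and -1.20 (adjusted p of 0.0483 and 0.0464). In the sample channel of the third, 2.42% of all genes passed. Of the 81, 2 were higher there (Cubn and Slc7a9) and 2 lower (Xpnpep2 and Elf3). On WT replicate 1, 9 of these 81 genes were at least 1 log2 unit above every other array in the sample channel, as were 181 of the 22646 genes (0.799%). Among the 9 was Krt20, with 21876.2 units and 808.0 to 2792.0 units elsewhere. Spink4, a goblet cell peptide picked after its values were seen, had 917.1 and 4373.5 units in p63-/-;Cdx2, 8985.3, 2959.4 and 2434.2 units in p63-/- and 583.7, 91.3, 32.4 and 69.5 units in WT, and differed by 2.02 between p63-/- and WT in log2 ratio (adjusted p = 0.126). The genes outside the members with a log2 ratio most like that of Vil1 over the 9 arrays were Bpifb5 (r = 0.968), Galnt4 (0.962), Nr2f1 (0.955), Rassf6 (0.954) and Fbxo33 (0.948), with r between 0.888 and 0.945 without WT replicate 1. These are descriptions over arrays that share the reference RNA.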

How the data were processed

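RNA of 9 newborn esophagi was measured on 2-colour Agilent arrays. The deposited scanner files hold the authors' spot intensities, read with Feature Extraction 10.7.3.1 on build mm9, per the file headers. A deposited table of the authors' log2 values was used only as an alternative. In limma 3.58.1 (R 4.3.3), intensities were background-corrected (normexp, offset 50) and loess-normalised within arrays, with control and outlier spots at weight 0, to a log2 ratio of sample over reference. For the sample channel, the mean of both channels was scaled between arrays by Aquantile after the loess step. The sample signal was then taken from this mean and the log2 ratio, so it also depends on the reference channel. Genes were read from their brightest probe among those well above background on at least 2 of the 9 arrays. The 22646 genes were fitted over all arrays (lmFit, eBayes) and adjusted by Benjamini-Hochberg at 0.05. Intensity units in the text are the scanner software's background-subtracted sample signal, per the file headers. The number of arrays limits the precision. The members and lists were chosen with earlier results of these data known. By the rule for named genes, values on every array were due for the 3 Cdx genes, Vil1, members that passed and the 3 largest and 3 smallest log ratio differences of p63-/-;Cdx2 against p63-/- and of p63-/- against WT, and list genes were named where they passed. Per-array values of other members, and Krt20 and Spink4, were added after their values were seen. Alternatives were other background and normalisation settings, the authors' table, a trended prior, a replicate block, 2-group fits and each array left out. The fit was tested on simulated data.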

Additional observations from a re-analysis of the deposited data

Results flagged for a closer look

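In 9 of 42 members 1 of the 4 WT mice lay far from the other 3 in log2 ratio, by a test that flags about 5% of groups by chance. These were 21.4% of the members, and the same test picked 1698 of 22633 genes (7.5%). WT replicate 1 was the high array for Myo1a (2.64, the others -0.01 to 0.15), Lgals4 (3.56, the others -0.08 to 0.51), Tm4sf5 (1.76, the others -0.01 to 0.18) and Trim31 (1.92, the others -0.12 to 0.01). These were 4 of the 7 members that stood out on this array, which also held the highest stomach markers. WT replicate 3 lay apart for Isx (0.11, the others 0.62 to 0.70), Tmigd1 (0.23, the others 0.67 to 0.76) and Sis (-0.43, the others -1.42 to -1.32). This array also stood apart over all genes, holding the lowest log2 ratio of 20.5% of them, against 4.28% to 18.9% on the other arrays. Its log2 ratios correlated with the authors' table at 0.77, against 0.88 to 0.895 on the other arrays. For Tmigd1 the sample channel of this mouse was 7.22 against 7.24 to 7.30 in the other WT mice, and its reference channel was 6.98 against 6.50 to 6.56. WT replicate 2 was high for Cdh17 (0.18, the others -0.06 to -0.02) and WT replicate 4 for Zg16 (0.20, the others -0.01 to 0.02).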

How the results depend on the processing

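Among the single members, 6 values changed sign. Apob for p63-/- against WT was -0.03 with the scanner's processed signals and -0.09 in the authors' table. With 1 array left out, Lgals4 ranged from -1.03 to 0.18 and Myo1a from -0.82 to 0.06 for p63-/- against WT, both above 0 without WT replicate 1. For p63-/-;Cdx2 against p63-/-, Zg16 ranged from -0.91 to 0.27, above 0 without p63-/- replicate 1, and Vil1 from -0.38 to 0.17, above 0 without Cdx2 transgene replicate 1. Counts of genes passing moved as follows. In the log ratio for p63-/- against WT (74), they were 133 in the authors' table, 9 with the replicate block and 115 fitting 2 groups. For p63-/-;Cdx2 against p63-/- (0), they were 5 with processed signals, 4 in the authors' table and 1 with a trended prior. For p63-/-;Cdx2 against WT (319), they were 597 with processed signals, 93 with scaled arrays, 541 with a trended prior, 8 with the block and 50 fitting 2 groups. In the sample channel the block gave 74, 0 and 35 for p63-/- against WT, p63-/-;Cdx2 against p63-/- and p63-/-;Cdx2 against WT. Members passing in the log ratio were 1 for p63-/- against WT with processed signals and in the authors' table (Hnf4g), and 1 for p63-/-;Cdx2 against WT in both (Tmigd1) and with a trended prior (A1cf). In the sample channel they were 1 for p63-/- against WT with quantile scaling (Tmigd1) and with processed signals (Cdh17), and 0 for p63-/-;Cdx2 against WT with processed signals (Tmigd1 -2.32, adjusted p = 0.0752) and with the block (-0.69, adjusted p = 0.257). Leaving out 1 array gave 21 to 121, 0 to 36 and 58 to 370 genes in the log ratio for p63-/- against WT, p63-/-;Cdx2 against p63-/- and p63-/-;Cdx2 against WT, and 187 to 464, 6 to 158 and 177 to 690 in the sample channel. Members passing were 0, 0 and 0 to 2, and 0 to 1, 0 to 2 and 0 to 3. The cause was not tested. Whether replicate numbers pair the mice was not settled. In deviations from group means, same-numbered arrays correlated at -0.134 to 0.188 and others at -0.197 to 0.193. With 2 p63-/-;Cdx2 arrays these deviations mirror each other, so the ranges cannot decide it. With 2 p63-/-;Cdx2 mice, differences as large as the spread between them were not detectable, and differences of dim members compare values near background.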
